A study of Mus musculus with 24 samples.

Results

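Glutamate receptors and synaptic plasticity genes were followed in the right cerebral hemisphere of 24 mice fed 1 of 4 diets. The set holds 39 genes given by name, among them ionotropic and metabotropic glutamate receptors, postsynaptic scaffolds, calcium-dependent kinases and proteins of the synaptic vesicle. Each gene was read from the probe set annotated to it alone, and where several were, from the one whose mean over all 24 arrays was highest. Such a probe set was found for 37 of the 39 genes, and Grin1 and Shank2 were not analysed here. Of the 37, 34 passed the filter on low values and are part of the 13830 features tested. The mice were separate animals, all female NMR-1 mice, 8 weeks old at the start, and each diet was fed to 6 of them for 2 weeks. The diets were the mouse pellet diet on which the animals had been raised, the vegetable, fruit and yogurt diet of captive chimpanzees ("chimpanzee"), cooked meals of an institute canteen ("cafeteria") and fast food. The last 2 are called human diets. Each mouse gave 1 array, and the labels place 3 arrays of each diet in batch 1 and 3 in batch 2.

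Glutamate is the main excitatory transmitter of the brain. It is released from synaptic vesicles, opens AMPA, NMDA and kainate receptor channels on the receiving cell, and acts more slowly through metabotropic receptors coupled to G proteins. Scaffold proteins hold the receptors in the postsynaptic density. Calcium entering through NMDA receptors activates calmodulin-dependent kinases and, through them, the transcription factor CREB, and the strength of the synapse changes with its recent use.

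The values are log2 levels, so that a difference of 1 is a doubling of the signal. The spread of the deposited values differed between arrays, with an SD over probe sets of 1.58 to 2.06. Values are as deposited unless stated. Many counts of calls and many values are also given after the 24 arrays had been brought to 1 distribution ("quantile scale"). Among the chimpanzee, cafeteria and fast food arrays the SD was 1.81 to 2.02 in batch 1 and 2.01 to 2.06 in batch 2. Among the pellet arrays it was 1.95 to 2.04 in batch 1 and 1.58 to 1.85 in batch 2. Control probe sets for 18S ribosomal RNA moved the other way, from 5.87 to 6.58 in batch 1 and 4.88 to 5.15 in batch 2 of the other diets, and from 4.96 to 5.51 in batch 1 and 5.92 to 6.42 in batch 2 of pellet. In both measures the pellet arrays labelled batch 2 lay on the side of the other diets' batch 1. Pellet batch 2 replicate 1 stood apart from every other array, with the lowest SD and a median correlation of 0.892 with the others, and the pellet comparisons are also given without it. The study's methods leave out 1 pellet brain sample because its RNA was strongly degraded. Which array that was is not given in the sources used here, and all 24 were kept. In whole tissue, fewer cells of a type and less RNA per cell cannot be told apart.

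Diet was compared first, between the cafeteria and fast food arrays together and the chimpanzee arrays, with batch as a term (limma, 18 arrays). None of the 34 members was called at a Benjamini-Hochberg adjusted p under 0.05, against 0.0506% of all features. On the quantile scale 0 members and 23 of the 13830 features were called. At an unadjusted p under 0.05 there were 4 members on the deposited scale, against 6.49% of all features, and 11 on the quantile scale, against 10.1%. The members' median difference was -0.03 on the deposited scale, and 0.01 over all features. Differences ran from -0.20 to 0.25, and the widest 95% interval reached 0.36 to either side of its estimate. The plot of human minus chimpanzee diets shows every member with its interval.

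**Figure D1:**
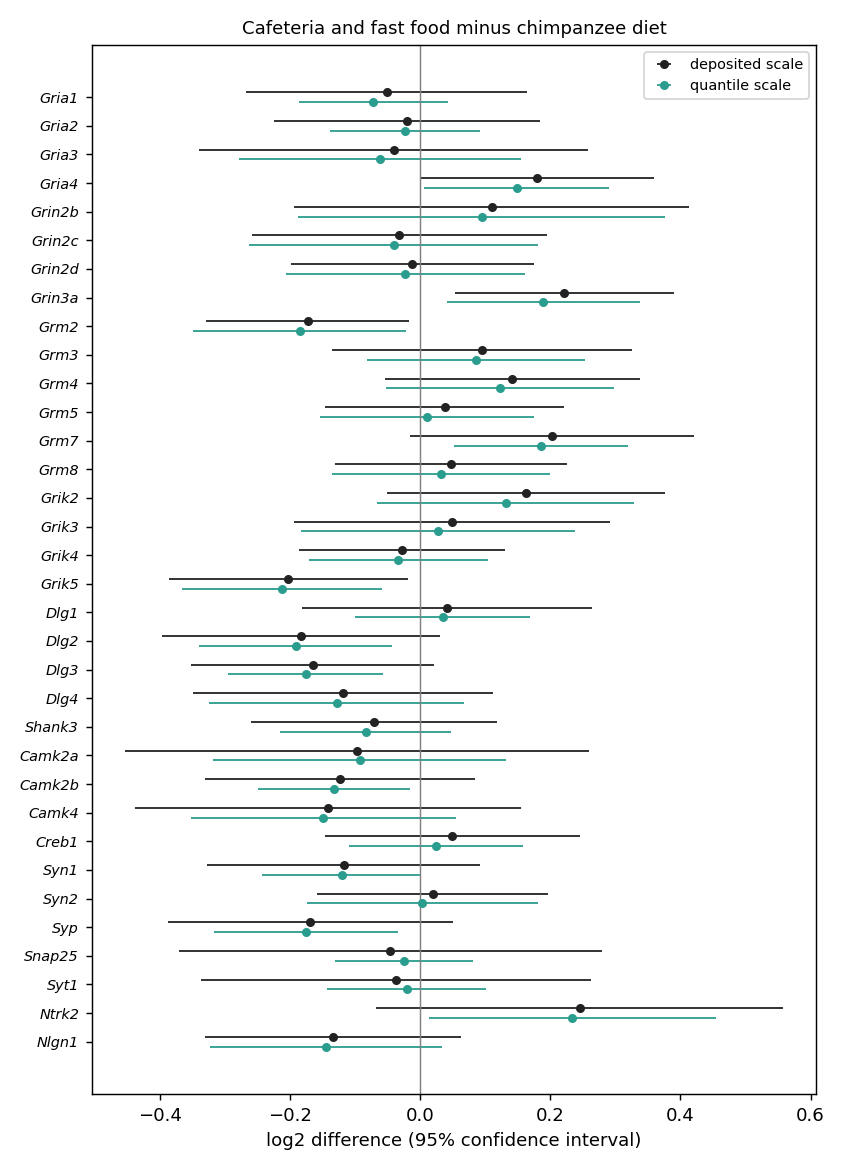
Log2 difference between the 12 cafeteria and fast food arrays and the 6 chimpanzee arrays for the 34 tested members, with 95% confidence intervals, on the deposited (black) and quantile (green) scales. All points lie between -0.21 and 0.25.

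The member with the smallest p was Grin3a, an NMDA receptor subunit that lowers the calcium flow of the channel. Its log2 level ranged from 5.66 to 5.85 (median 5.76) in the chimpanzee arrays. In the cafeteria arrays it ranged from 5.73 to 6.17 (median 5.98), and in the fast food arrays from 5.68 to 6.21 (median 6.07). The chimpanzee values lie at the low end, and the groups overlap. The difference was 0.22 ± 0.08 (SE, n = 12 and 6; limma adjusted p = 0.536), and 0.19 on the quantile scale. It was 0.10 in batch 1 and 0.34 in batch 2.

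Grm2, a metabotropic autoreceptor that reduces glutamate release, ranged from 7.33 to 7.58 (median 7.35) in the chimpanzee arrays. It ranged from 6.92 to 7.41 (median 7.29) in the cafeteria arrays and from 7.03 to 7.48 (median 7.20) in the fast food arrays. The difference between human and chimpanzee diets was -0.17 ± 0.07 (SE; limma adjusted p = 0.692), with -0.05 in batch 1 and -0.29 in batch 2, and -0.19 on the quantile scale. Grik5, a kainate receptor subunit that forms channels only together with other subunits, ranged from 7.88 to 8.56 (median 8.28) in the chimpanzee arrays. Its cafeteria values ran from 7.95 to 8.19 and its fast food values from 7.96 to 8.19, inside the chimpanzee range. The difference was -0.20 ± 0.09 (SE; limma adjusted p = 0.701), with -0.07 in batch 1 and -0.33 in batch 2, and -0.21 on the quantile scale. For all 3 genes the groups overlap and the larger difference is that of batch 2.

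Markers of brain regions moved beside these values. Of 14 listed cerebellar markers 9 passed the filter, and all 9 had a positive difference between human and chimpanzee diets (median 0.55). So had 12 of 13 tested thalamic markers (median 0.49), and no marker of either list was called. The mean level of the cerebellar markers ranged from 5.88 to 6.33 (median 6.09) in the chimpanzee arrays. It ranged from 6.09 to 7.57 (median 6.59) in the cafeteria arrays and from 5.81 to 7.15 (median 6.16) in the fast food arrays. That of the thalamic markers ranged from 6.15 to 7.06, 6.77 to 7.43 and 6.78 to 7.46. Cortex markers had medians of 8.21, 7.98 and 8.06, and hippocampus markers 7.06, 6.86 and 6.91. Striatum medians were also lower on both human diets as deposited, and olfactory bulb and hypothalamus medians higher. On the quantile scale the striatum medians were 8.01 (chimpanzee), 8.02 (cafeteria) and 8.01 (fast food), and those of cortex 8.02, 7.97 and 8.02. In the same order the cerebellar medians were 6.06, 6.63 and 6.08, the thalamic ones 6.88, 7.15 and 7.16 and the hippocampal ones 6.94, 6.88 and 6.87. The part of these regions in the members' differences was not tested.

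The pairs of diets gave no call either. Between the cafeteria and chimpanzee diets 0 of the 34 members was called by limma (0.0145% of all features), and 4 had an unadjusted p under 0.05 as deposited (5.03% of all features) and 6 on the quantile scale (8.09%). Dlg3, a scaffold of the postsynaptic density, had a difference of -0.23 ± 0.10 (SE; limma adjusted p = 0.979), with -0.19 in batch 1 and -0.26 in batch 2. Its level ranged from 7.55 to 8.21 in the chimpanzee arrays and from 7.30 to 7.96 in the cafeteria arrays. Nlgn1, a postsynaptic adhesion protein, had a difference of -0.22 ± 0.11, with -0.07 in batch 1 and -0.38 in batch 2. Its ranges, 6.20 to 6.88 and 6.01 to 6.59, overlap.

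Between the fast food and chimpanzee diets 0 members were called by limma (0.0217% of all features), with 2 at an unadjusted p under 0.05 as deposited (8.35%) and 9 on the quantile scale (11.2%). Grm7, a presynaptic metabotropic receptor, ranged from 7.46 to 8.07 in the chimpanzee arrays and from 7.70 to 8.41 in the fast food arrays. Its difference of 0.24 ± 0.12 (SE; limma adjusted p = 0.600) was 0.27 in batch 1 and 0.22 in batch 2. Between the fast food and cafeteria diets 0 members and 0% of all features were called by limma, and 2 members had an unadjusted p under 0.05, against 7.06% of all features. Grm5, a metabotropic receptor coupled to calcium release, was at 0.22 ± 0.10, with 0.29 in batch 1 and 0.16 in batch 2. Grm8, a presynaptic metabotropic receptor, was at 0.20 ± 0.10, with 0.01 in batch 1 and 0.39 in batch 2. The members' median was 0.09 and that of all features 0.05, with 29 members positive and 5 negative. After quantile normalization the medians were 0.02 and -0.00, with 21 positive and 13 negative.

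The 2 labelled batches differed far more than the diets. Over the 18 chimpanzee, cafeteria and fast food arrays, 25 of the 34 members were called between batch 2 and batch 1, against 49.7% of all features (limma, diet as a term). Of these, 22 were higher in batch 2, against 40.3% of all features, and 3 were lower, against 9.46%. The members' median difference was 0.30, and that of all features 0.14. After quantile normalization 17 members were called, against 42.3% of all features, 10 higher (17.7%) and 7 lower (24.6%), with medians of 0.01 and -0.03. On both scales 10 members were higher and 3 lower. A further 12 were higher on the deposited scale only, 4 were lower on the quantile scale only, and 5 were called on neither. No member was called for a batch difference that differed among these 3 diets, against 0% of all features (limma F test, with 2 members at an unadjusted p under 0.05, against 1.6% of all features).

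All AMPA receptor subunits were higher in batch 2 on the deposited scale. These form the channels that carry most fast excitatory current. Gria2, the subunit that keeps calcium out of the channel, ranged from 8.95 to 9.67 (median 9.20) in the 9 arrays of batch 1 and from 9.77 to 10.14 (median 9.98) in those of batch 2. The batches did not overlap. The difference was 0.70 ± 0.09 (SE; limma adjusted p = 6.64e-06) and 0.27 ± 0.05 on the quantile scale, on which the batches overlapped. Gria4 ranged from 7.17 to 7.58 in batch 1 and from 7.48 to 8.11 in batch 2, a difference of 0.41 ± 0.08, and 0.17 ± 0.06 on the quantile scale. Gria3 was higher on both scales, whereas Gria1 differed by 0.30 ± 0.09 as deposited and by -0.05 ± 0.05 on the quantile scale.

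The NMDA receptor subunits went apart by their chosen probe sets. Grin2b, a glutamate-binding subunit abundant in forebrain, ranged from 5.99 to 6.74 in batch 1 and from 6.36 to 7.35 in batch 2. Its difference was 0.55 ± 0.13 (SE; limma adjusted p = 0.00208), and 0.35 ± 0.12 on the quantile scale. A further Grin2b probe set past the filter, with a mean of 6.03, differed by -0.55, so the direction for this gene depends on the probe set. Grin2d, a subunit of slowly closing channels, ranged from 5.06 to 5.52 (median 5.45) in batch 1 and from 4.67 to 5.21 (median 5.02) in batch 2. Its difference was -0.43 ± 0.08 (limma adjusted p = 0.000278) and -0.50 ± 0.08 on the quantile scale. Grin2c and Grin3a were called on neither scale. Grin2a, with a mean of 3.55, was under the filter of 4.07, the median of all mean levels, and its batches differed by 0.02 with no test.

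Among metabotropic receptors, Grm5 ranged from 7.48 to 8.02 in batch 1 and from 8.04 to 8.60 in batch 2, without overlap as deposited. The difference was 0.57 ± 0.08 (SE; limma adjusted p = 1.56e-05). On the quantile scale the batches overlapped, with 7.55 to 8.10 and 7.83 to 8.33. A further Grm5 probe set, with a mean of 7.45, differed by -0.02 as deposited. Grm8 ranged from 3.88 to 4.47 in batch 1 and from 4.26 to 4.77 in batch 2 and was higher on both scales. Grm2 and Grm4, both coupled to inhibition of adenylyl cyclase, were lower on both scales, by -0.18 ± 0.07 and -0.23 ± 0.09 as deposited. Grm4 ranged from 5.47 to 5.97 in batch 1 and from 5.15 to 5.90 in batch 2. Without any of 7 single arrays the deposited call of Grm2 was lost (adjusted p 0.0519 to 0.0661), and without any of 5 that of Grm4 (0.0554 to 0.0754). These were arrays of all 3 diets for Grm4 and of the cafeteria and fast food diets for Grm2. Grm3, which ranged from 8.16 to 9.04 in batch 1 and from 8.72 to 9.27 in batch 2, and Grm7 were higher on the deposited scale only.

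Grik2, a kainate receptor subunit, had the largest batch difference among the members by their chosen probe sets. It ranged from 4.16 to 4.53 (median 4.42) in batch 1 and from 4.90 to 5.79 (median 5.34) in batch 2, with no overlap on either scale. The difference was 0.92 ± 0.09 (SE; limma adjusted p = 6.28e-07), and 0.85 ± 0.09 on the quantile scale. It was 0.62 in the chimpanzee arrays, 0.85 in the cafeteria arrays and 1.29 in the fast food arrays. A further Grik2 probe set past the filter, with a mean of 4.11, differed by 0.26. A further Syt1 probe set, with a mean of 8.59, differed by 1.47. Grik5 differed by 0.03 ± 0.08 as deposited and by -0.28 ± 0.07 on the quantile scale, where it was called. Grik3 and Grik4 were called on neither scale, and Grik1, with a mean of 3.90, was under the filter and differed by 0.29 with no test.

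Of the scaffolds, Dlg1, which binds AMPA and kainate receptor tails, ranged from 8.43 to 9.30 in batch 1 and from 9.16 to 9.57 in batch 2, and was higher on both scales (0.61 ± 0.10 as deposited). Dlg2 and Dlg3 were higher on the deposited scale only. Dlg4, the main scaffold of the postsynaptic density, ranged from 8.13 to 8.72 in batch 1 and from 7.78 to 8.58 in batch 2. Its difference of -0.23 ± 0.10 was not called as deposited (limma adjusted p = 0.0632). On the quantile scale it was -0.56 ± 0.09, and the batches did not overlap. Shank3, which links scaffolds to the cytoskeleton, was lower on the quantile scale only, and Shank1, with a mean of 4.02, was under the filter and differed by -0.05 with no test.

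The calcium-dependent kinases and CREB were all higher in batch 2 as deposited by their chosen probe sets, and none was called on the quantile scale. Camk2a, the kinase subunit best known for synaptic strengthening, ranged from 9.31 to 10.69 in batch 1 and from 9.95 to 10.96 in batch 2. Its difference was 0.48 ± 0.16 as deposited and -0.00 ± 0.10 on the quantile scale. The further Camk2a probe sets past the filter differed by 0.10, -0.41, 0.39, -0.46 and -0.58 as deposited. The direction for this gene therefore depends on the probe set. Creb1 ranged from 6.60 to 7.23 and from 6.99 to 7.35, with 0.30 ± 0.09 and 0.08 ± 0.06.

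Among presynaptic proteins, Snap25, part of the complex that fuses vesicles with the membrane, ranged from 10.86 to 12.09 (median 11.17) in batch 1 and from 11.88 to 12.38 (median 12.14) in batch 2. The difference was 0.85 ± 0.14 (SE; limma adjusted p = 7.76e-05) and 0.23 ± 0.05 on the quantile scale, on which the batches did not overlap. Syt1, the calcium sensor of release, ranged from 10.62 to 11.84 and from 11.51 to 11.95, with 0.74 ± 0.13 as deposited and 0.16 ± 0.05 on the quantile scale. For both genes the highest array of batch 1 lay above the lowest of batch 2. Syn1 and Syn2, which tether vesicles, were higher on the deposited scale only, and Syp, a vesicle membrane protein, was lower on the quantile scale only. Syn2 ranged from 8.84 to 9.46 in batch 1 and from 9.14 to 9.47 in batch 2. Ntrk2, the BDNF receptor, ranged from 8.78 to 9.87 and from 9.36 to 10.37 and was higher on the deposited scale only.

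**Figure D2:**
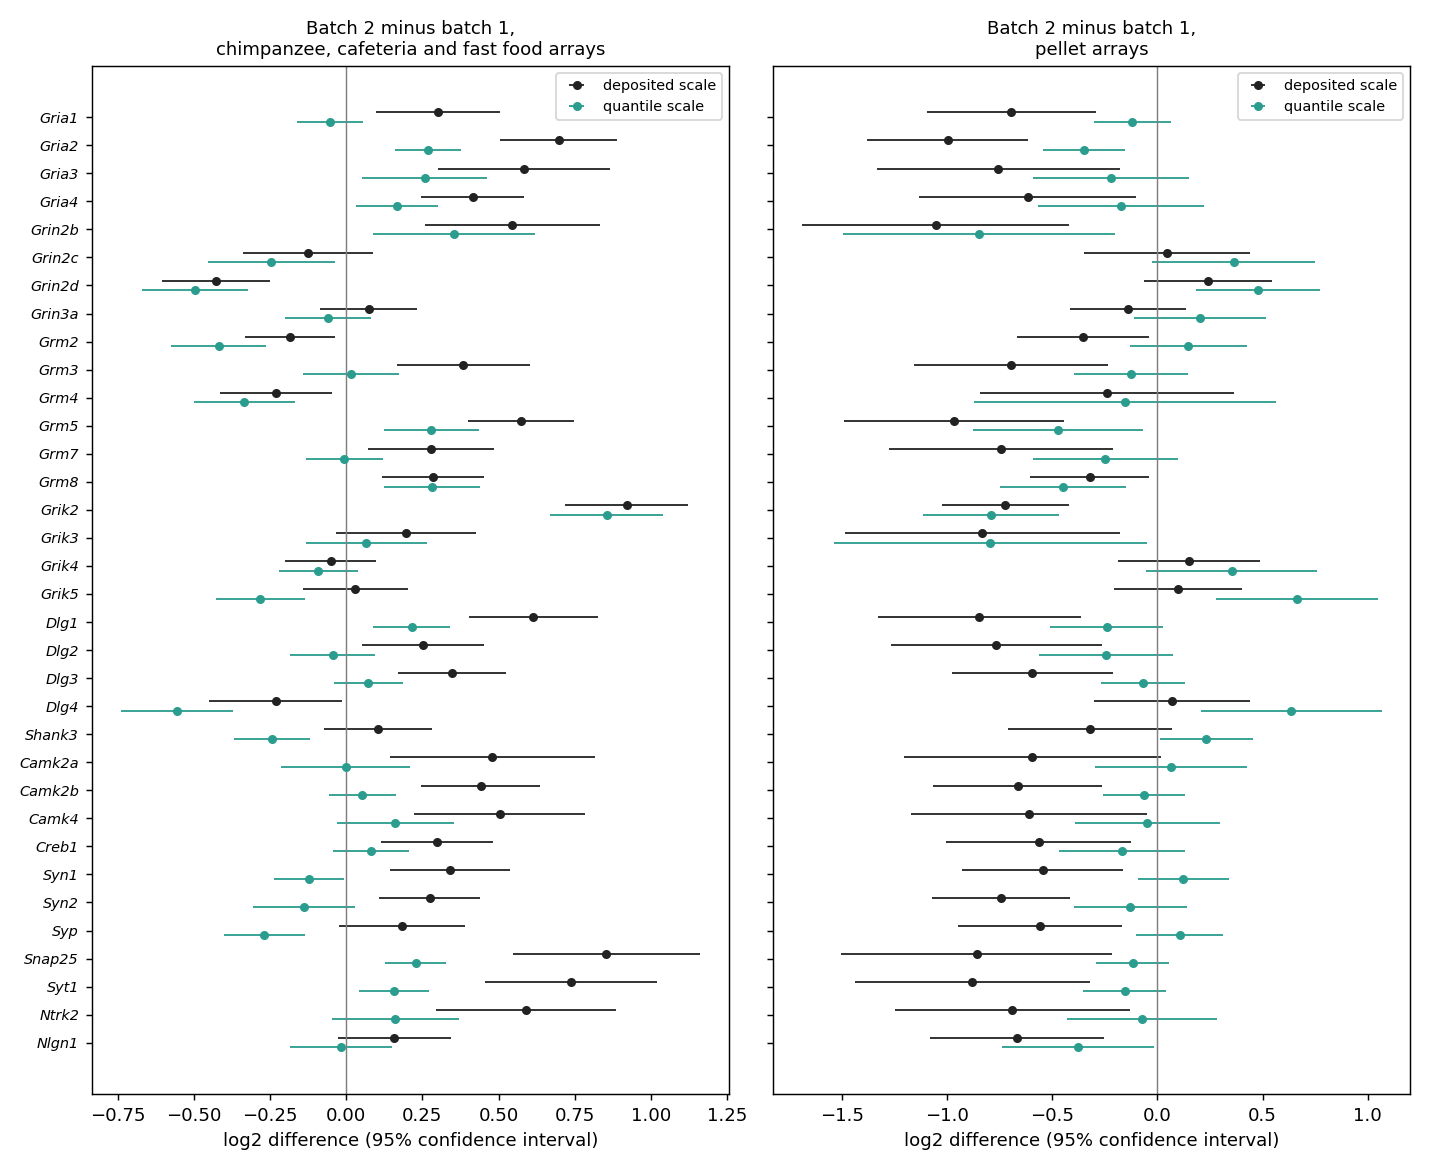
Log2 difference between batch 2 and batch 1 for the 34 tested members with 95% confidence intervals, in the 18 chimpanzee, cafeteria and fast food arrays (left) and the 6 pellet arrays (right), on the deposited (black) and quantile (green) scales. As deposited, 28 members lie above 0 on the left and 29 lie below 0 on the right.

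The neuron markers, which include the member Snap25, were higher in batch 2. Of the 15, 14 were called as deposited and 5 on the quantile scale, against 40.3% and 17.7% of all features higher. Their mean level ranged from 8.996 to 9.79 in batch 1 and from 9.66 to 10.05 in batch 2, and on the quantile scale from 9.38 to 9.52 and from 9.48 to 9.73. Of 11 astrocyte markers 9 were higher as deposited, and of 12 oligodendrocyte markers 10. On the quantile scale the mean level of the astrocyte markers ranged from 8.46 to 8.63 in batch 1 and from 8.45 to 8.78 in batch 2. That of the oligodendrocyte markers ranged from 8.07 to 8.64 and from 8.25 to 8.82. The part of cell makeup in the members' batch differences was not tested.

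Other genes of the same synapses were counted beside the members. Of 50 tested genes of the glutamate synapse, 27 were higher and 1 lower in batch 2 (median 0.29). After quantile normalization 15 were higher and 15 lower. Lin7c, an adaptor of receptor scaffolds, was higher by 1.30 ± 0.10 and the astrocyte glutamate transporter Slc1a2 by 0.84 ± 0.12, whereas Cacng8, an AMPA receptor auxiliary subunit, was lower, at -0.31 ± 0.09. Of 30 tested genes of vesicles and release, 23 were higher and 2 lower, and on the quantile scale 4 and 5. Between human and chimpanzee diets 0 genes of either list were called by limma. In that comparison Slc1a3 had the smallest p of the glutamate synapse list, at 0.23 ± 0.06 (limma unadjusted p = 0.00193, adjusted p = 0.420). The vesicular glutamate transporter Slc17a6, which is also among the thalamic markers, differed by 0.64 ± 0.21 (unadjusted p = 0.00607, adjusted p = 0.520). Nlgn2 differed by -0.19 ± 0.08 (limma unadjusted p = 0.0313, adjusted p = 0.720).

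In the pellet arrays 29 of the 34 members had a negative difference between batch 2 and batch 1, and 25 were called, all lower in batch 2, against 62.5% of all features called, 51.2% lower and 11.3% higher (limma). Among them was Grm2, which was lower in batch 2 in the other diets as well (in pellet -0.35 as deposited, and 0.15 and not called on the quantile scale). The members' median was -0.64 and that of all features -0.42. On the quantile scale 7 members were called, against 38.3% of all features, 3 higher (18.7%) and 4 lower (19.7%), and the medians were -0.12 and -0.07. Of the members under the filter, Grin2a differed by 0.30, Grik1 by -0.44 and Shank1 by 0.96, with no test. Of the 15 neuron markers, which include the member Snap25, 13 were lower as deposited and 0 on the quantile scale. Their mean level ranged from 9.51 to 9.80 in batch 1 and from 8.43 to 9.35 in batch 2. That of the cerebellar markers ranged from 6.17 to 6.48 in batch 1 and from 5.26 to 8.32 in batch 2. On the quantile scale it ranged from 6.07 to 6.46 and from 5.41 to 8.48. The part of these markers in the members' difference was not tested. Of the other glutamate synapse genes 31 of 50 were lower, and of the vesicle and release genes 23 of 30. Without pellet batch 2 replicate 1, 4 members were called as deposited, against 21.1% of all features, and the median was -0.37. Without pellet batch 1 replicate 2, 11 were called, against 42.7%.

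Gria2 was at 9.87, 10.11 and 9.62 in the pellet arrays of batch 1 and at 8.55, 9.06 and 9.0 in those of batch 2. All batch 1 values lie above all batch 2 values. The difference was -0.997 ± 0.18 (SE, n = 3 and 3; limma adjusted p = 0.00236), -0.84 without pellet batch 2 replicate 1, and -0.35 ± 0.09 on the quantile scale. Grik2 was at 5.12, 5.16 and 4.98 and at 4.16, 4.62 and 4.31, again without overlap, with -0.72 ± 0.14 as deposited, -0.62 without that array and -0.79 ± 0.15 on the quantile scale. Grin2b was at 6.74, 6.97 and 6.54 and at 4.85, 6.36 and 5.88. Its difference of -1.05 ± 0.30 became -0.63 without pellet batch 2 replicate 1, with an adjusted p of 0.0762, and was -0.85 ± 0.31 on the quantile scale. Grm5 was at 8.15, 8.40 and 7.94 and at 6.30, 7.85 and 7.43, and its difference of -0.97 ± 0.25 became -0.52 without that array. On the quantile scale it was -0.47 ± 0.19 and was not called (limma adjusted p = 0.0565). Syt1 was at 11.65, 11.80 and 11.44 and at 10.24, 10.79 and 11.21. Its difference of -0.88 ± 0.26 became -0.63 without that array (adjusted p = 0.0798), and -0.16 ± 0.09 on the quantile scale.

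The batch difference of pellet was tested against that of the other diets. It differed in 26 members, against 69.4% of all features (limma), 1 higher (13.7%) and 25 lower (55.6%). On the quantile scale 15 members were called, against 51.9%, 7 higher (26.1%) and 8 lower (25.8%). Without pellet batch 2 replicate 1, 25 were called as deposited, against 56.3% of all features. Grin2d was higher on both scales, by 0.67 ± 0.17 as deposited. Its pellet values were 5.28, 5.09 and 5.34 in batch 1 and 5.40, 5.50 and 5.53 in batch 2, the reverse of the order in the other diets. Snap25 had -1.71 ± 0.35, Gria2 -1.69 ± 0.21, Grik2 -1.64 ± 0.16 and Syt1 -1.62 ± 0.30, and these 4 were lower on both scales. Without that array they had -1.40, -1.53, -1.54 and -1.37, and Grin2d 0.71. Syp was lower as deposited (-0.74 ± 0.21, and -0.55 without that array) and higher on the quantile scale (0.37 ± 0.11).

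**Figure D3:**
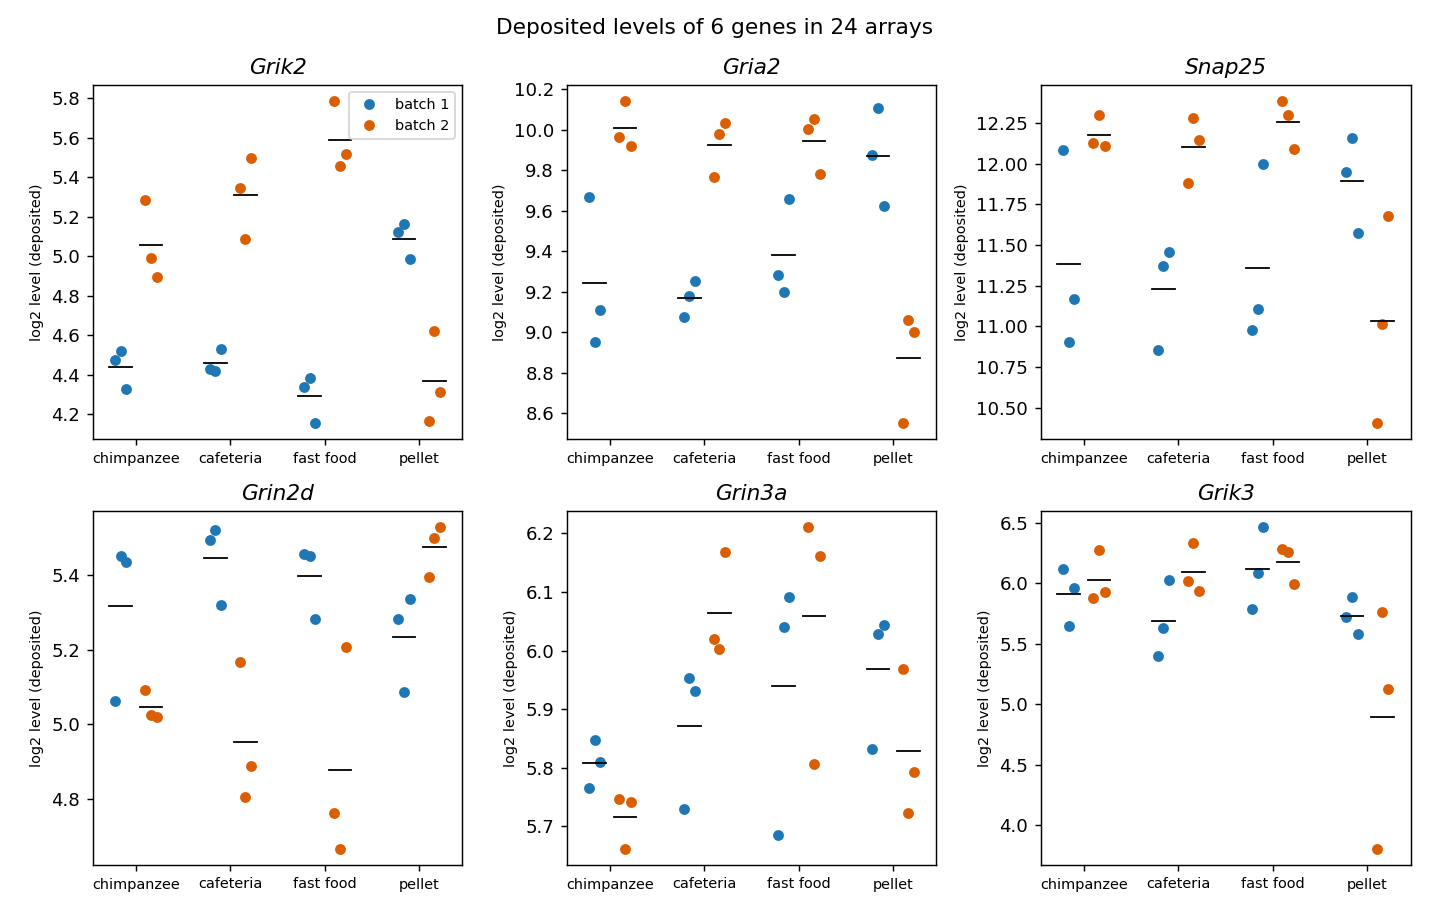
Deposited log2 level of 6 genes in each of the 24 arrays by diet, with batch 1 in blue, batch 2 in orange and the mean of 3 arrays as a line. In Grik2 and Gria2 batch 2 lies above batch 1 in the chimpanzee, cafeteria and fast food arrays and below it in the pellet arrays.

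The pellet diet was then compared with each other diet in a fit to all 24 arrays that included batch. Here 0 members were called by limma against chimpanzee (0.00723% of all features), cafeteria (0%) and fast food (0.0362%), with 1 (9.72% of all features), 1 (5.47%) and 4 (21.5%) members at an unadjusted p under 0.05. The comparisons share arrays, the pellet arrays among them. In the test of the 4 diets together 0 members were called (0.0434% of all features), with 1 at an unadjusted p under 0.05 (5.34%). Without pellet batch 2 replicate 1 these counts of calls stayed at 0, and the members' medians were -0.04, 0.03 and -0.04. With it, the median of all features was -0.14, -0.12 and -0.16 in the 3 comparisons, and that of the members -0.22, -0.15 and -0.24. After quantile normalization these medians lay between -0.03 and 0.01. The members with a positive difference were 5, 6 and 5 of 34 as deposited and 12, 18 and 16 on the quantile scale.

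These pooled values join batches that differ in sign. Against chimpanzee, 29 of the 34 members had a positive difference in batch 1 and 5 in batch 2, with medians of 0.26 and -0.73. Within batch 1 alone 1 member was called against chimpanzee (0.145% of all features), 2 against cafeteria (2.94%) and 1 against fast food (0.0940%). Within batch 2 alone 25 (53.1%), 22 (50.4%) and 24 (58.7%) were called. Without pellet batch 2 replicate 1, a setting added after the data had been seen, these were 21 (42%), 17 (41.1%) and 21 (50.9%). On the quantile scale the members' medians against chimpanzee were 0.04 in batch 1 and -0.13 in batch 2.

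Grik3, a kainate receptor subunit, had the smallest p against each diet. It was at 5.72, 5.89 and 5.58 in the pellet arrays of batch 1 and at 3.81, 5.76 and 5.12 in those of batch 2. It ranged from 5.65 to 6.27 in the chimpanzee arrays, from 5.40 to 6.33 in the cafeteria arrays and from 5.79 to 6.46 in the fast food arrays. The difference from fast food was -0.83 ± 0.25 (SE; limma adjusted p = 0.226), with -0.38 in batch 1 and -1.28 in batch 2, and -0.52 without pellet batch 2 replicate 1. From chimpanzee it was -0.65 ± 0.25 (-0.34 without that array), and from cafeteria -0.58 ± 0.25 (-0.27).

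For Dlg2, Nlgn1, Grm7, Creb1 and Ntrk2 the values within the batches stood apart. Dlg2, a scaffold of NMDA receptors, differed from chimpanzee by 0.17 in batch 1 and -0.96 in batch 2, and Nlgn1 by 0.17 and -0.90. Against cafeteria Grm7 differed by 0.11 and -0.94 and Creb1 by 0.11 and -0.71. Grm7 differed from fast food by -0.01 and -0.99. Ntrk2 differed from fast food by 0.12 and -1.18. Without pellet batch 2 replicate 1 the pooled values moved from -0.40 to -0.15 in Dlg2, from -0.36 to -0.18 in Nlgn1, from -0.41 to -0.16 (cafeteria) and from -0.50 to -0.24 (fast food) in Grm7, from -0.30 to -0.10 in Creb1 and from -0.53 to -0.33 in Ntrk2.

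Further probe sets of the same genes gave a second reading of some members. For 21 tested members 38 further probe sets passed the filter. The batch difference in the other diets had the sign of the chosen probe set in 28 of the 38, the batch difference in pellet in 33 and the difference between human and chimpanzee diets in 24. For Camk2a 3 further probe sets had the opposite sign in both batch differences. In the other diets a further Grin2b probe set had -0.55, against 0.55 for the chosen one.

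Promoter sequences were looked up for all members, whether or not they differed. RefSeq windows (build GRCm38.p6, 250 bases before to 50 after the start) were at hand for 26 members with 40 windows. A search on both strands covered 7 strings, and the 2 marked below were picked after the results of all 7 were seen. The CREB element TGACGTCA was in 1 member window (1.79% of all 32851 windows) and its shorter core TGACG, which overlaps it, in 6 of 40 (20.8%). TTCAGCACC, the left part of the element bound by the repressor REST, was in 3 of 40 (0.371%), and TTCAGCAC, which it contains, in 3 (1.17%). GGGCGG was in 21 (35.7%), GCGGGGGCG in 5 (2.91%) and TATAAA in 2 (13.6%). A match describes the letters of the window and no bound site. The stretches with TTCAGCACC and TGACGTCA are shown. They belong to Syn1, higher in batch 2 as deposited, Grm2, lower in batch 2, and Nlgn1, called on neither scale. Capitals mark TTCAGCACC and, in Syn1, also TGACGTCA, and all 3 are on the minus strand.
Syn1 (chrX:20921050-20921168): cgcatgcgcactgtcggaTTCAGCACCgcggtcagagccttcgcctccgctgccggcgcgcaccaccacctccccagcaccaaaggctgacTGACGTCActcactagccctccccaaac
Grm2 (chr9:106656323-106656359): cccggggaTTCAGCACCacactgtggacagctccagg
Nlgn1 (chr3:26154111-26154159): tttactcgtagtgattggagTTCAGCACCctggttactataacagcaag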

How the data were processed

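Total RNA of the right cerebral hemisphere was hybridised to Affymetrix arrays, 1 per mouse. The deposited table gives log2 levels for 45101 probe sets. Per the methods, the authors made them by rma (affy package), including quantile normalization. The columns do not share 1 distribution, so quantile normalization of the 24 columns was added after the values had been seen. Control probe sets (64), probe sets with several genes (932) and features with a mean under the median of 4.07 were left out. The 13830 features hold 11636 genes and 2194 probe sets with no gene listed. Comparisons were fitted with limma 3.58.1 in R 4.3.3 (lmFit and eBayes, Benjamini-Hochberg over all features, threshold 0.05), diet and batch as terms, over 18 arrays where pellet was not compared. The replicate numbers were not used as pairs in the main fits. Over 36 same-numbered pairs, deviations correlated at -0.512 to 0.485 (median -0.0232), and 14 pairs were over 0.1. These values cannot exclude a pairing, since the spread of whole arrays enters them. Per the methods, littermates were spread evenly over the diet groups, and the labels used here give no litter. No 2 arrays correlated above 0.996. The number of arrays limits the precision.

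Members and lists were chosen with earlier results of these data known. Values are given for up to 4 members called in each direction with the largest difference, for up to 3 with the smallest p where none was called, and for the highest and lowest member of each family. Alternatives covered filter, probe set, scaling, batch model, replicate block, weights, single arrays and batch labels. Array weights by limma's default stopped before convergence in some fits, so weights estimated gene by gene were added after the default's counts had been seen. Fits were tested on simulated data, with noise drawn independently for each feature and the same spread in every array. Such data cannot show how the fits behave where arrays differ in spread or shift as a whole.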

Additional observations from a re-analysis of the deposited data

Results flagged for a closer look

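Of 84 groups of 6 arrays examined over 21 named members, 8 held an array far from the other 5. The rule flags about 1 in 20 independent groups by chance. These groups share arrays, hold both batches and concern members named by their p or difference, so that rate is no measure of chance here. Pellet batch 2 replicate 1 was that array for Grik5 (8.46, others 8.10 to 8.20), Grm7 (6.40, others 7.57 to 8.11), Grik3 (3.81, others 5.12 to 5.89), Dlg2 (6.66, others 7.84 to 8.27) and Creb1 (5.83, others 6.75 to 7.20). Pellet batch 2 replicate 3 was high for Grin2c (6.41, others 5.65 to 5.92). Cafeteria batch 1 replicate 1 was low for Grm8 (3.88, others 4.28 to 4.47) and Dlg2 (7.54, others 8.02 to 8.26).

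The batch difference of pellet differed from that of the other diets in 26 of the 34 members, against 69.4% of all features (limma interaction). Those named were Grin2d at 0.67, Snap25 at -1.71, Gria2 at -1.69, Grik2 at -1.64 and Syt1 at -1.62.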

How the results depend on the processing

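The counts of members called between the chimpanzee, cafeteria and fast food diets stayed at 0 under every alternative run. On the arrays of batch 1 or batch 2 only, pellet gave 1 and 25 members against chimpanzee (0.145% and 53.1% of all features). It gave 2 and 22 against cafeteria (2.94% and 50.4%) and 1 and 24 against fast food (0.0940% and 58.7%). The count for the 4 diets also moved from 0 in both settings. Against fast food, cells of diet and batch gave 1 member (13.5% of all features) and exchanged pellet batch labels 2 (12.3%). Batch 2 less pellet batch 2 replicate 1 was added after the data had been seen. It gave 21 (42% of all features), 17 (41.1%) and 21 (50.9%), and 23 (39.3%) for the 4 diets. Array weights by the planned default moved no count by over 1.5 times, and 0 members were called against chimpanzee, against cafeteria and over the 4 diets. Weights estimated gene by gene, added after those counts had been seen, gave 6, 6 and 4 (12.2%, 14.5% and 7.04% of all features), 13 in place of 25 for the batch difference of pellet (36.7%) and 1 in place of 0 for the batch difference among the other diets (0.983%). Quantile normalization gave 7 members for the batch difference of pellet and 15 for its difference from the other diets. Leaving out 1 array gave 4 (without pellet batch 2 replicate 1) to 26 members for the batch difference of pellet. With the replicate block the batch difference gave 25 members in the other diets and 24 in pellet, and no count of calls moved by over 1.5 times. Of the members named for each comparison none reversed its direction with a call in either fit. Uncalled changes of sign did occur. On the arrays of batch 1 only, Dlg2 and Nlgn1 (pellet minus chimpanzee) were positive, against negative pooled values. So were Grik3, Grm7 and Creb1 (pellet minus cafeteria) and Ntrk2 (pellet minus fast food). Syp, not among the named members, reversed with quantile normalization in the test of pellet against the other diets' batch difference, from -0.74 to 0.37, both called. Other members called on 1 scale changed sign on the other: Gria1, Grm7, Grik5, Dlg2, Shank3, Camk2a, Syn1, Syn2 and Syp between batches of the other diets, Grm2, Syn1 and Syp in pellet, and Grm2, Shank3, Camk2a, Syn1 and Syn2 in the test of pellet against the others. The causes of these changes were not tested. Detection calls were not used, so signal over background is not known.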
